A study of Mus musculus with 24 samples.

Results

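The mRNA response of eIF4E3 KO cells to Torin1 was read from 6 of the 24 libraries of the series, the RNA-seq libraries labelled KO, 3 after DMSO and 3 after Torin1. They were chosen by genotype, assay and treatment in their labels, and no measured value was used. The cells are Neuro-2a (N2a), a mouse neuroblastoma line. The whole study set KO against ctrl cells, with and without Torin1, in RNA-seq and ribo-seq, to ask what eIF4E3, a cap-binding relative of eIF4E1, does when mTOR is inhibited. Both KO groups had received vectors with Cas9 and guides against exons of Eif4e3 in 2 rounds of transfection and puromycin selection, while ctrl cells had received the vector without a guide. No cloning step is described, so the KO cells are described as the population that survived selection. KO Torin1 cells had 250 nM Torin1 in DMSO for 2 h, and KO DMSO cells had the same volume of DMSO for the same time. Each replicate number stands for another passage of the cells. The main p-values measure the spread between the 3 libraries of a condition, from passages of 1 population, without pairing libraries of equal number.

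The mTOR kinase works in a pair of complexes. mTORC1 promotes cap-dependent translation by phosphorylating the 4E-BPs and S6 kinases, holds back autophagy and lysosome genes by keeping TFEB and TFE3 out of the nucleus, and sustains the transcription factors ATF4 and SREBP. mTORC2 activates AKT, which restrains FoxO factors, and S6 kinase dampens signalling from insulin receptor substrates to PI3K and RAS. Torin1 blocks the ATP site of the kinase and so acts on both complexes.

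The deposited table holds counts per CDS for 12535 transcripts, and the library totals ran from 17953074 to 28912958. Testing was limited to the 11004 transcripts with a level above 1 CPM (counts per 1000000 counts of the library) in all 3 libraries of at least 1 condition, which left out 1531. Pearson's r of log2(CPM + 1) across the transcripts tested was 0.9959, 0.9958 and 0.9964 between the Torin1 libraries. Between KO DMSO replicates 1 and 3 it was 0.9963, and KO DMSO replicate 2 stood further off, at 0.9919 and 0.99 from the other two. Of 17 markers of sympathoadrenal neuroblastoma, 15 were in the table and all 15 were tested, with a summed level of 3985 to 4581 CPM in DMSO and 3905 to 4141 CPM with Torin1, so the transcripts of the labelled cell type were present. Marker lists of fibroblasts, glia, leukocytes, epithelium and endothelium summed to at most 4.92 CPM in any library. In total RNA of a culture, fewer cells with a transcript and less of it per cell cannot be told apart.

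Eif4e3 itself, the gene targeted by the guides (GRCm38, minus strand, chr6:99625135-99666771), was read here as mRNA, which is not a measure of the protein. The study reported that eIF4E3 protein was undetectable in KO cells by Western blot. Eif4e3 mRNA had 3.73, 2.94 and 5.04 CPM in KO DMSO and 5.10, 4.57 and 4.77 CPM in KO Torin1. The Torin1 values lay within the range of the DMSO values apart from 1 that was just above it, and the log2 fold change was 0.28 ± 0.200 (SE, adjusted p = 0.385) by edgeR, so no change with the drug was called. In ctrl cells the same transcript had a mean of 15.9 CPM in DMSO and 14.4 CPM with Torin1. Eif4e3 shares coding sequence with the overlapping gene Gm20696, which makes its counts uncertain.

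Of the 11004 transcripts, 1097 (9.97%) differed between Torin1 and DMSO at an adjusted p under 0.05 (edgeR quasi-likelihood test with Benjamini-Hochberg adjustment), 686 of them higher (6.23% of those tested) and 411 lower (3.74%). Counts of calls in the gene lists below stand beside these shares of all transcripts. Most of the changes called were small. The median log2 fold change was 0.53 among the increases and -0.40 among the decreases, and 109 increases and 22 decreases were larger than 2-fold. The Torin1 and DMSO libraries did not overlap for 685 of the 686 and for all 411, a pattern held by 33% of all transcripts tested. With the replicate number as a block the count was 1797 (1080 higher, 717 lower), and the 1097 were among them. The count was 550 without KO DMSO replicate 1, and 579, 438 and 502 without KO Torin1 replicates 1, 2 and 3, while 264 of the increases and 107 of the decreases were called in each of the 6 fits without 1 library. Called genes given below with values were in that set unless stated otherwise. That statement does not extend to Nbr1 and Slit1, given under other observations.

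**Figure D1:**
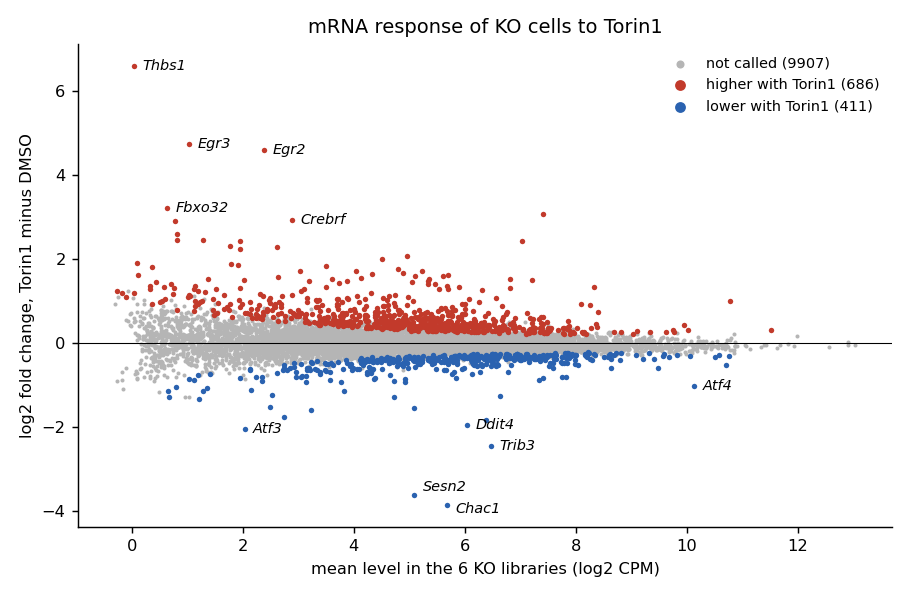
Log2 fold change with Torin1 (vertical axis) against the mean level over the 6 KO libraries (log2 CPM, horizontal axis) for the 11004 transcripts tested, 1 point each. The 686 higher and 411 lower transcripts are coloured. The increases reach further than the decreases, from Thbs1, Egr3 and Egr2 at the top to Chac1 and Sesn2 at the bottom.

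The deepest decreases, of Chac1 and Sesn2, belonged to the ATF4 programme, the transcription arm of the integrated stress response that supplies amino acids and answers to a lack of them. Of 24 tested regulators and stress targets of ATF4, 15 fell and 1 rose, against 3.74% and 6.23% of all transcripts, with a median log2 fold change of -0.47 beside -0.00452 over all transcripts tested. The number lower ran from 11 to 18 over the alternative fits. Chac1, which breaks down glutathione, had 97.9, 90.5 and 98.2 CPM in KO DMSO and 5.59, 6.86 and 7.56 CPM in KO Torin1. Every Torin1 library lay far below every DMSO library. Its log2 fold change was -3.84 ± 0.112 (SE, adjusted p = 1.84e-09) by edgeR. Sesn2, a leucine sensor that restrains mTORC1, had 65.5, 60.1 and 63.3 CPM in KO DMSO and 5.33, 5.29 and 4.72 CPM in KO Torin1, a fall of about the same depth with no overlap. The change came to -3.62 ± 0.0987 (SE, adjusted p = 1.59e-09) on the log2 scale. Trib3, a pseudokinase that feeds back on ATF4 and AKT, went from 148, 152 and 149.9 CPM to 30.9, 29.6 and 22.0 CPM, without overlap, a log2 fold change of -2.45 ± 0.113 (SE, adjusted p = 1.54e-07). Ddit4 (REDD1), another inhibitor of mTORC1, had 111, 108 and 95.2 CPM in KO DMSO and 28.3, 29.9 and 23.4 CPM in KO Torin1. The groups were far apart, with a log2 fold change of -1.94 ± 0.104 (SE, adjusted p = 5.17e-07).

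Atf4 mRNA was itself lower, at 1429, 1612 and 1471 CPM in KO DMSO and 720.0, 755 and 745 CPM in KO Torin1. The 3 Torin1 values were close together and far below the DMSO values, and the log2 fold change was -1.02 ± 0.0663 (SE, adjusted p = 2.46e-06) by edgeR. Atf3, a stress-induced repressor, fell from low levels (6.70, 5.93 and 7.13 CPM in KO DMSO and 1.71, 1.74 and 1.36 CPM in KO Torin1), by a log2 fold change of -2.03 ± 0.183 (SE, adjusted p = 3.26e-05). Jdp2, a partner of the AP-1 and ATF factors, changed by -1.58 (adjusted p = 1.25e-05), Gdf15, a secreted stress signal, by -1.54 (adjusted p = 6.85e-05), and Eif4ebp1, the gene of 4E-BP1, by -0.48 (adjusted p = 0.00741). Gpt2, an alanine transaminase, had -0.53 (adjusted p = 0.00154). Atf5, a further bZIP factor, had a log2 fold change of -0.29 (adjusted p = 0.127) with overlapping libraries, and it was called lower with the replicate block (adjusted p = 0.0106). Sqstm1, the autophagy receptor p62, was the 1 member called higher, at 0.30 (adjusted p = 0.0251), and its call was lost without KO DMSO replicate 1 or any 1 of the KO Torin1 libraries (adjusted p from 0.00128 to 0.119 over the alternatives). Ddit3 (CHOP) was called lower at -0.37 (adjusted p = 0.029), and lost its call in the same fits (adjusted p from 0.00385 to 0.128 over the alternatives). Both calls were also lost when all 4 RNA-seq conditions were fitted together.

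The composite element bound by ATF4 with C/EBP partners was looked for in RefSeq promoter windows (GRCm38.p6, 250 bases before to 50 after each start), as TGATGNAA on either strand. Windows were at hand for 8763 of the 10992 gene symbols tested. The letters were in 230 of these (2.62%), in 14 of 559 increased genes (2.5%) and in 15 of 338 decreased genes (4.44%). Among the 10 largest decreases, 5 held them, Chac1, Trib3, Atf3, Herpud1 and Jdp2. They are printed because these genes lead the fall, as 30 bases 5′ to 3′ on the strand of the gene, with the match in capitals.
Chac1: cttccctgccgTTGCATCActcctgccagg
Trib3: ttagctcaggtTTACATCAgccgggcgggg
Atf3: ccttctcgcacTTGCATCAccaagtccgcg
Herpud1: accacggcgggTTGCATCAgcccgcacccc
Jdp2: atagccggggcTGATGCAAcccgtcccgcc
The windows lie at chr2:119351038-119351067 on the plus strand, chr2:152344028-152344057 and chr1:191183425-191183454 on the minus strand, and chr8:94386306-94386335 and chr12:85599372-85599401 on the plus strand. Counted from the RefSeq start, the matches begin at -193 in Chac1, 14 in Trib3, -110 in Atf3, -112 in Herpud1 and -33 in Jdp2. In all but Jdp2 the element is read on the strand opposite to the gene, so it appears as its reverse complement. Herpud1 also held a CArG box, the element described further on. Sesn2 and Ddit4 had no match in their windows. Of the ATF4 regulators and stress targets that fell, 4 of 14 with a window held the element (28.6%). Among cytosolic aminoacyl-tRNA synthetases it was in 5 of 17 (29.4%), of which Gars, Iars and Tars were not called. Asns, also not called, held it as well. A match is a run of letters and was not tested as a binding site.

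In the synthesis of serine, proline and asparagine and one-carbon metabolism, 8 of 26 transcripts fell and none was called higher, with a median log2 fold change of -0.13. The number was 3 without KO DMSO replicate 1 and 4, 2 and 3 without KO Torin1 replicates 1, 2 and 3. Got1, the cytosolic aspartate transaminase, had 174, 183 and 166 CPM in KO DMSO and 132, 137 and 139 CPM in KO Torin1, with all Torin1 values below all DMSO values and a log2 fold change of -0.36 ± 0.0657 (SE, adjusted p = 0.00562) by edgeR. Asns, the asparagine synthetase and a classical ATF4 target, had 1748, 2027 and 1746 CPM in KO DMSO and 1677, 1721 and 1582 CPM in KO Torin1. These groups came close without overlapping, and its log2 fold change of -0.15 (adjusted p = 0.226) did not pass the test.

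Among 23 amino acid transporters, 4 fell (Slc1a4, Slc38a10, Slc3a2 and Slc7a5) and 1 was called higher, with a median of -0.14. The number lower was 7 without KO DMSO replicate 2 and 7 with the replicate block. It was 3 without KO DMSO replicate 1, without any 1 KO Torin1 library and with all 4 conditions fitted together. Slc3a2 lost its call in each of those fits. Slc7a5 (LAT1), the light chain of the leucine importer, had 882, 888 and 797 CPM in KO DMSO and 597, 535 and 566 CPM in KO Torin1. The groups were clearly apart, and its log2 fold change was -0.60 ± 0.0692 (SE, adjusted p = 0.000267) by edgeR. Slc38a10 changed by -0.59 (adjusted p = 0.000467) and Slc1a4 (ASCT1), a carrier of neutral amino acids, by -0.51 (adjusted p = 0.00583). Slc7a11, the cystine carrier of system xc, had 18.4, 10.3 and 15.9 CPM in KO DMSO and 12.1, 9.79 and 11.2 CPM in KO Torin1, with overlapping libraries and a log2 fold change of -0.44 (adjusted p = 0.151), and was called lower with the replicate block (adjusted p = 0.0443) and without KO DMSO replicate 2. The 1 called higher was Slc43a1, with 0.97 (adjusted p = 0.0227), a call lost without KO DMSO replicate 1 and without each KO Torin1 library. Of 24 cytosolic aminoacyl-tRNA synthetases, which charge tRNAs, 3 were called lower, Aars, Wars and Yars, with a median of -0.09. No synthetase kept its call in all 6 fits without 1 library, the number being 5 without KO DMSO replicate 2, where the median was -0.0451, and 1, 0 and 1 without KO Torin1 replicates 1, 2 and 3.

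**Figure D2:**
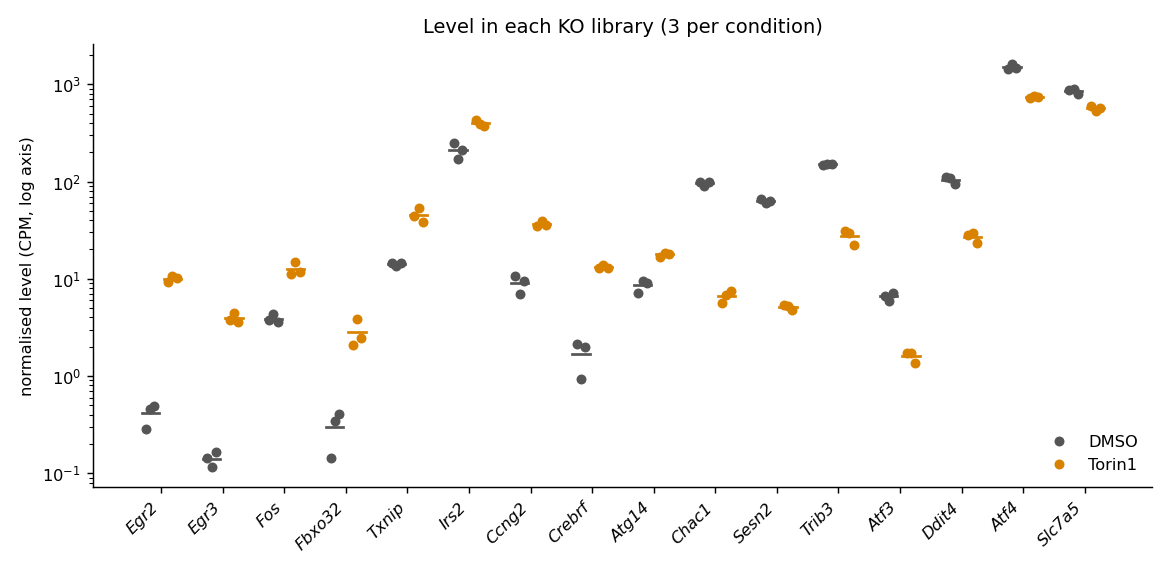
Normalised level (CPM, log axis) of 16 transcripts in each of the 6 KO libraries, grey for DMSO and orange for Torin1, with a bar at the mean of 3 libraries. From Egr2 to Atg14 the Torin1 points lie above the DMSO points, and from Chac1 to Slc7a5 they lie below them, with no overlap within any of the 16. The 16 were picked from called transcripts, nearly all of which lack overlap, as do 33% of all transcripts tested.

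Immediate early genes, which growth factor and MAPK signals switch on without new protein synthesis, had the highest median of the lists and 4 of the 10 largest increases (Egr3, Egr2, Egr1 and Npas4). Of 34 tested, 21 rose and 1, Atf3, fell, with a median log2 fold change of 0.67. The number higher ran from 17 to 24 over the alternative fits. The number lower was 2 without KO DMSO replicate 3 and 3 with the replicate block. Egr2, a zinc finger factor of the early growth response family, had 0.283, 0.460 and 0.492 CPM in KO DMSO and 9.17, 10.8 and 10.2 CPM in KO Torin1. It was close to absent in DMSO and plainly present in every Torin1 library. The log2 fold change was 4.59 ± 0.224 (SE, adjusted p = 2.3e-07) by edgeR. Its relative Egr3 had 0.142, 0.115 and 0.164 CPM in KO DMSO and 3.80, 4.47 and 3.59 CPM in KO Torin1, again with widely separated groups and a log2 fold change of 4.74 ± 0.306 (SE, adjusted p = 2.4e-06). Egr1, far more abundant, had 31.9, 40.2 and 36.0 CPM in KO DMSO and 260.5, 373 and 277 CPM in KO Torin1. The lowest Torin1 library was well above the highest DMSO library, with a log2 fold change of 3.08 ± 0.137 (SE, adjusted p = 1.2e-07).

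The AP-1 subunit Fos had 3.73, 4.32 and 3.56 CPM in KO DMSO and 11.1, 14.8 and 11.8 CPM in KO Torin1, so the groups did not overlap, and its log2 fold change was 1.71 ± 0.159 (SE, adjusted p = 4.18e-05) by edgeR. Btg2, an antiproliferative factor, rose from 1.33 ± 0.205 to 6.37 ± 0.486 CPM (SD, n = 3 in each group). Npas4, an activity-induced factor of neurons, changed by 2.60 (adjusted p = 0.000238), Zfp36, an RNA-binding protein that shortens the life of AU-rich mRNAs, by 1.48 (adjusted p = 4.47e-05), and Srf, the factor that drives many of these genes, by 1.27 (adjusted p = 1.57e-06). Jun had 27.2, 23.7 and 18.9 CPM in KO DMSO and 17.4, 20.9 and 16.1 CPM in KO Torin1. Its libraries overlapped and its log2 fold change was -0.36 (adjusted p = 0.136), a decrease called with the replicate block (adjusted p = 0.0404) and without KO DMSO replicate 3.

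Serum response factor binds the CArG box, which was searched in the same promoter windows. It was in 141 of 8763 windows (1.61%), in 23 of 559 increased genes (4.11%) and in 4 of 338 decreased genes (1.18%). Of the 15 increased immediate early genes with a window, 3 held it, Egr2, Srf and Zfp36. Their matches are printed as examples of the element in genes that rose, with the box in capitals.
Egr2, upstream window: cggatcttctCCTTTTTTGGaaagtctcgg
Egr2, downstream window: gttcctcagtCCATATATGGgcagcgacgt
Srf, distal box: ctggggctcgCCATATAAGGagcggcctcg
Srf, proximal box: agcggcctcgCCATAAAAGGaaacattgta
Zfp36: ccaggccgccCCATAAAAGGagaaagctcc
The Egr2 windows lie at chr10:67537484-67537513 and chr10:67537787-67537816 on the plus strand and belong to different annotated starts, each with its box at -72. Those of Srf are at chr17:46556225-46556254 and chr17:46556205-46556234, with boxes at -82 and -62, and that of Zfp36 is at chr7:28379267-28379296, with its box at -58, all on the minus strand. The Srf windows overlap by 10 bases. None of the 15 held the ATF4 element. The capitals mark letters and not a tested site.

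Of 22 feedback genes of MAPK signalling, 11 rose and 1 was called lower, with a median of 0.41. Over the alternative fits 8 to 12 were higher. Dusp6, a phosphatase of ERK, had 71.2, 61.7 and 61.7 CPM in KO DMSO and 164, 163 and 158 CPM in KO Torin1. Each Torin1 value was more than the highest DMSO value, and the log2 fold change was 1.31 ± 0.0763 (SE, adjusted p = 1.02e-06) by edgeR. The phosphatases Dusp2, Dusp5 and Dusp4 changed by 1.78 (adjusted p = 8.25e-07), 1.66 (adjusted p = 3.44e-06) and 1.09 (adjusted p = 0.000155). Spry2 and Spred1, which block signalling upstream of ERK, came to 0.57 (adjusted p = 0.00469) and 0.76 (adjusted p = 0.00465). Etv4 and Etv5, ETS factors often used as readouts of ERK, had log2 fold changes of 0.02 (adjusted p = 0.891) and -0.12 (adjusted p = 0.37) and did not pass the test. The 1 member called lower was Dusp8, a phosphatase of JNK and p38, whose call at -0.52 (adjusted p = 0.00994) was lost without KO DMSO replicate 1 and without KO Torin1 replicate 3.

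Targets of SRF, YAP and TGF-beta in the matrix and the cytoskeleton gave 9 increases and 1 decrease among 27 tested, with a median of 0.25. Increases numbered 6 to 11 over the alternative fits. Thbs1, the secreted matrix protein thrombospondin, had 0, 0 and 1 counts in the DMSO libraries and 72, 46 and 42 counts in the Torin1 libraries. With 3 counts per library in place of those in DMSO it was at least 14.1-fold higher (adjusted p = 5.29e-05 by edgeR). Cnn2, an actin-binding calponin, had 29.0, 28.3 and 28.2 CPM in KO DMSO and 75.5, 71.2 and 74.2 CPM in KO Torin1, with tight and separate groups, a log2 fold change of 1.37 ± 0.0759 (SE, adjusted p = 7.13e-07). Id1, an inhibitor of bHLH factors and a target of BMP signals, had -0.93 (adjusted p = 0.000202) and was the 1 lower, with 2 lower without KO DMSO replicate 2 or with the replicate block. The fibroblast markers, of which 3 of 7 were in the table, summed to 1.56 to 3.75 CPM in DMSO and 3.56 to 4.18 CPM with Torin1. Col1a1, Col1a2, Col3a1 and Lum were not listed, none of the tested markers was called, and their part in these changes was not tested. Ccl2, a chemokine for monocytes, and Akap5, a scaffold of protein kinase A at membranes, were also among the 10 largest increases, at 2.45 (adjusted p = 0.000129) and 2.92 (adjusted p = 2.7e-05).

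FoxO factors and insulin feedback formed the next group, with 9 of 28 higher and 1 lower, Cited2, and a median of 0.19. The number lower was 0 without KO DMSO replicate 1, 3 without KO DMSO replicate 2 and 2 with the replicate block. Fbxo32 (atrogin-1), a ubiquitin ligase known from muscle wasting, had 0.142, 0.345 and 0.410 CPM in KO DMSO and 2.09, 3.89 and 2.45 CPM in KO Torin1. Levels were low, but the groups were apart by several fold, and the log2 fold change was 3.21 ± 0.390 (SE, adjusted p = 0.000382) by edgeR. Crebrf, a regulator of CREB3 factors and of nutrient storage, had 2.12, 0.921 and 1.97 CPM in KO DMSO and 12.8, 14.0 and 12.9 CPM in KO Torin1, with KO DMSO replicate 2 the lowest. The log2 fold change came to 2.94 ± 0.215 (SE, adjusted p = 5.86e-06). Txnip, an inhibitor of thioredoxin and of glucose uptake, had 14.4, 13.4 and 14.5 CPM in KO DMSO and 44.2, 53.4 and 38.2 CPM in KO Torin1 and changed by 1.68 ± 0.124 (SE, adjusted p = 6.26e-06). Its DMSO values were tight while its Torin1 values spread more widely. Irs2, the insulin receptor substrate, had 252, 172 and 209 CPM in KO DMSO and 431, 392 and 375 CPM in KO Torin1, where the groups did not overlap and the log2 fold change was 0.92 ± 0.115 (SE, adjusted p = 0.000484).

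Ccng2, an unconventional cyclin linked to cell cycle exit, changed by 2.02 (adjusted p = 3.44e-06) and Pik3ip1, an inhibitor of PI3K, by 1.30 (adjusted p = 0.000267). Insr, the insulin receptor, had 56.6, 38.7 and 59.3 CPM in KO DMSO and 68.5, 64.0 and 63.5 CPM in KO Torin1. All Torin1 values were above the DMSO values, of which replicate 2 was far the lowest, and its log2 fold change was 0.34 (adjusted p = 0.125), an increase called with the replicate block (adjusted p = 0.0254) and without KO DMSO replicate 3. Sesn3, a further FoxO target, had -0.10 (adjusted p = 0.657). The FoxO element GTAAACA was in 2 of 23 promoter windows of this list, Txnip and Sesn1, and in 260 of 8763 overall (2.97%).

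Of 49 genes of the mTOR pathway itself, 5 rose and 1 fell, with a median of -0.01. The called share was 12.2%, beside 9.97% over all transcripts tested. Mtor and Rptor, the kinase and the defining subunit of mTORC1, had log2 fold changes of 0.09 (adjusted p = 0.534) and -0.01 (adjusted p = 0.969). Flcn and Fnip1, which together switch on RagC and RagD at the lysosome, had log2 fold changes of 0.69 (adjusted p = 0.000496) and 0.94 (adjusted p = 0.000999). Rictor, the defining subunit of mTORC2, had 38.0, 25.4 and 39.7 CPM in KO DMSO and 65.4, 56.6 and 60.1 CPM in KO Torin1. Its Torin1 libraries were all higher, with KO DMSO replicate 2 the lowest, and the change of 0.81 ± 0.140 (SE, adjusted p = 0.00403) by edgeR was not called when all 4 RNA-seq conditions were fitted together. Tsc1 (0.68, adjusted p = 0.00167) and Rhebl1 (0.83, adjusted p = 0.000685), an inhibitor and an activating GTPase of mTORC1, both rose. The 1 member lower was Eif4ebp1, given above, and 2 were lower without KO DMSO replicate 2 or with the replicate block.

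Autophagy genes and regulators of TFEB gave 18 increases and no decrease among 52, with a median of 0.12, and 10 increases without KO Torin1 replicate 2. They came from several steps of the pathway. Atg14, which directs the PI3 kinase complex to the forming membrane, had 7.22, 9.55 and 9.01 CPM in KO DMSO and 16.8, 18.6 and 17.9 CPM in KO Torin1. Torin1 values were well above all DMSO values, with a log2 fold change of 1.05 ± 0.128 (SE, adjusted p = 0.000386) by edgeR. Atg13 and Ulk1, of the initiating kinase complex, changed by 0.79 (adjusted p = 0.000253) and 0.48 (adjusted p = 0.00422), Gabarapl1, of the ATG8 family, by 0.67 (adjusted p = 0.00128), and Zfyve1 (DFCP1), a marker of the membrane platform, by 0.74 (adjusted p = 0.000447). Map1lc3b (LC3B) had 50.4, 55.7 and 54.0 CPM in KO DMSO and 52.2, 49.5 and 52.0 CPM in KO Torin1, overlapping libraries and a log2 fold change of -0.06 (adjusted p = 0.658).

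Of 48 lysosome and V-ATPase genes, 0 were called by edgeR, with 4 at an unadjusted p under 0.05. DESeq2 and the replicate block each called 1 and the fit without KO DMSO replicate 2 called 2, all higher. The median was -0.01, and 0.0169 without KO DMSO replicate 2, with 23 point estimates above and 25 below 0. Lamp1, an abundant lysosomal membrane protein, had 629.6, 681 and 645 CPM in KO DMSO and 672, 672 and 686 CPM in KO Torin1. Its groups overlapped, with 0.05 (adjusted p = 0.588) on the log2 scale. Ctsd, an aspartic protease, had -0.03 (adjusted p = 0.804), and Mcoln1, the lysosomal calcium channel, had 0.09 (adjusted p = 0.511). The E-box of the CLEAR type bound by TFEB, CACGTGAC on either strand, was in 11 of 36 lysosome windows (30.6%) against 443 of 8763 overall (5.06%), while the autophagy list had 3 of 43 (6.98%), Atg14 among them. The FoxO and insulin list had 5 of 23 (21.7%), with 4 of its 8 increases that had a window (Irs1, Irs2, Crebrf and Klf6). It was in 38 of 559 increased genes (6.8%) and in 6 of 338 decreased genes (1.78%).

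Of 26 genes of cholesterol synthesis and uptake, which SREBP2 drives, 9 fell and none was called higher, with a median of -0.20 and 4 lower without KO Torin1 replicate 2. Msmo1, a sterol demethylase, had 78.6, 99.6 and 106 CPM in KO DMSO and 55.8, 54.8 and 67.6 CPM in KO Torin1. Its groups were separate and its log2 fold change was -0.68 ± 0.118 (SE, adjusted p = 0.00434) by edgeR. Sqle, the squalene epoxidase, changed by -0.47 (adjusted p = 0.0075) and Scap, the escort of SREBP, by -0.38 (adjusted p = 0.0054). Among 17 genes of fatty acid synthesis, Fasn (-0.51, adjusted p = 0.00517, not called when all 4 conditions were fitted together) and Mid1ip1 (-0.86, adjusted p = 0.00011), an activator of acetyl-CoA carboxylase, fell and Lpin1 rose. The number lower there was 5 without KO DMSO replicate 2 and 4 with the replicate block. Lpin1, the phosphatidate phosphatase lipin-1 that mTORC1 keeps out of the nucleus, had 51.8, 47.0 and 54.2 CPM in KO DMSO and 103, 96.1 and 104 CPM in KO Torin1, well apart and with a log2 fold change of 0.99 ± 0.0798 (SE, adjusted p = 1.31e-05).

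In glycolysis and HIF-1 targets, 4 of 33 fell (Ddit4, Egln1, Pgam1 and Slc16a3) and 2 were called higher (Kdm3a and Pfkfb2), with a median of -0.12. The number lower was 7 without KO DMSO replicate 2 or with the replicate block, and 2 without KO DMSO replicate 1 or without KO Torin1 replicate 2 or 3. The number higher was 1 without any library other than KO DMSO replicate 3. Slc16a3 (MCT4), the lactate exporter, changed by -0.52 (adjusted p = 0.00202) and Kdm3a, a histone demethylase induced by HIF-1, by 0.71 (adjusted p = 0.00169), while Hk2 and Hif1a had -0.27 (adjusted p = 0.0591) and -0.06 (adjusted p = 0.63). Hk2 was called lower with the replicate block (adjusted p = 0.0273), with DESeq2, with the exact test and without KO DMSO replicate 2. Of 31 genes of the pentose phosphate pathway and nucleotide synthesis, 3 were called lower (G6pdx, Rpia and Cad), with a median of -0.08. The called share was 9.68%, beside 3.74% lower and 9.97% in either direction over all transcripts tested. None of these 3 kept its call without KO DMSO replicate 1 or without KO Torin1 replicate 2, and 1 did without KO Torin1 replicate 1 or 3. The median was -0.0392 without KO DMSO replicate 2.

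In the ER and the unfolded protein response, 8 of 27 genes fell, with a median of -0.09, and the number was 5 without KO DMSO replicate 1 and 3, 1 and 5 without KO Torin1 replicates 1, 2 and 3. Herpud1, a component of ER-associated degradation whose promoter window is shown above, was far ahead of the rest. It had 132, 125 and 136 CPM in KO DMSO and 36.0, 39.1 and 35.4 CPM in KO Torin1, with tight groups, and a log2 fold change of -1.83 ± 0.0769 (SE, adjusted p = 9.48e-08) by edgeR. Dnajb9, a target of IRE1 and XBP1, had 0.20 (adjusted p = 0.318), and Hsp90b1 had -0.08 (adjusted p = 0.565). Of 20 cytosolic heat shock chaperones 4 fell (Chordc1, Dnajb1, Fkbp4 and Hspb8), with a median of -0.17, and the number was 8 without KO DMSO replicate 2, and it was 2 when KO DMSO replicate 1 was left out or any 1 of the KO Torin1 libraries. Dnajb1 (-0.60, adjusted p = 0.000509) and Hspb8 (-0.36, adjusted p = 0.00798) led them, and Hsf1, their main activator, had 0.04 (adjusted p = 0.776).

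**Figure D3:**
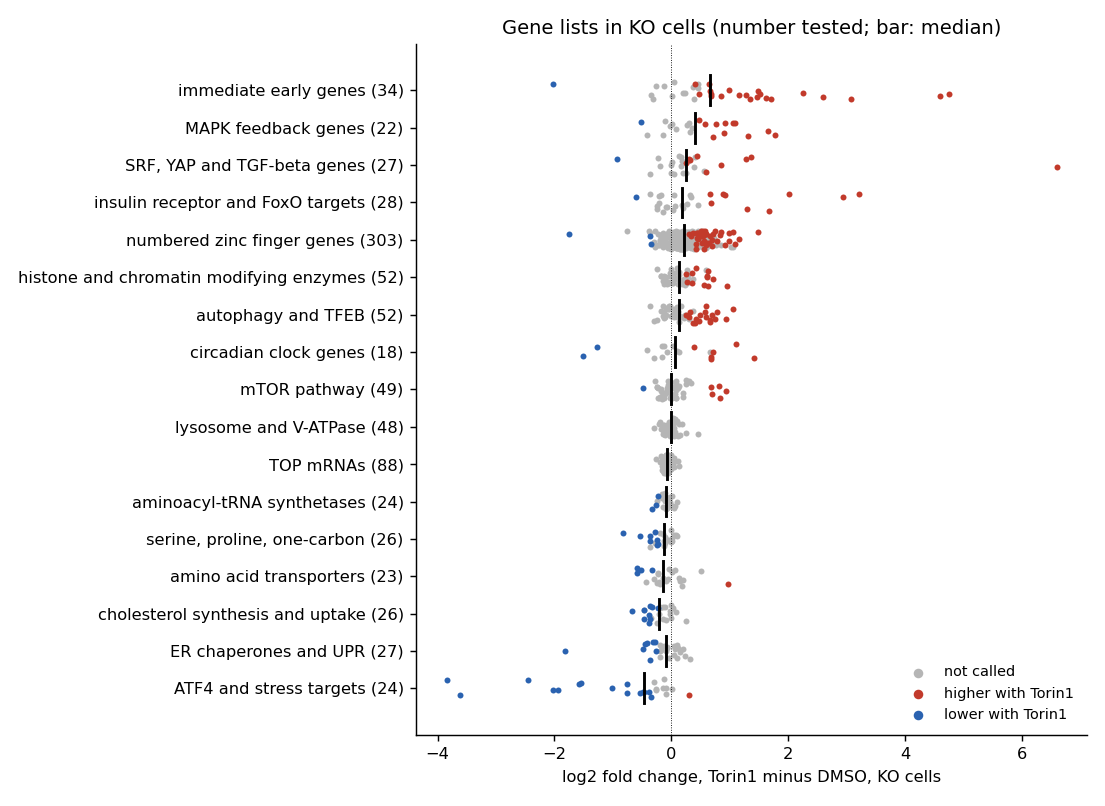
Log2 fold change with Torin1 in KO cells (horizontal axis) of the members of 17 gene lists, 1 point per transcript, with the number tested in parentheses and a black bar at the median. Red and blue points passed the test. Immediate early genes have the highest median (0.67) and ATF4 and stress targets the lowest (-0.47), while lysosome genes and TOP mRNAs have no coloured point.

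TOP mRNAs carry a 5′ terminal oligopyrimidine tract and encode ribosomal proteins and elongation factors, and of 88 tested 0 were called by edgeR, 0 by DESeq2 and 0 with the replicate block, with 1 at an unadjusted p under 0.05 in edgeR and a median of -0.07. The fit without KO DMSO replicate 2 called 1 higher and had a median of 0.0175, of the opposite sign, and the fit without KO DMSO replicate 3 called 1 lower. Eef2, the elongation factor, had 7541, 8167 and 6948 CPM in KO DMSO and 8055, 7677 and 7476 CPM in KO Torin1, with overlapping libraries and a log2 fold change of 0.03 (adjusted p = 0.798). Eef1a1 had -0.03 (adjusted p = 0.785) and Pabpc1 0.12 (adjusted p = 0.223). Of 82 nucleolar genes of ribosome biogenesis, 2 were called higher (Sdad1 and Taf1d) and 3 lower (Grwd1, Ppan and Rrs1), with a median of -0.01. The called share was 6.10%, below the 9.97% over all transcripts tested. Grwd1 (-0.50, adjusted p = 0.00187), a histone-binding factor of the pre-60S particle, was the only lower call of these that held in all 6 fits without 1 library, and the counts ran from 1 to 4 higher and 1 to 3 lower over those fits and were 4 and 7 with the replicate block.

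Oxidative phosphorylation (4 of 86 lower, median -0.16) and the mitochondrial ribosome (3 of 78 lower, median -0.16) had called shares of 4.65% and 3.85%, near the 3.74% lower over all transcripts tested, with 82 and 71 point estimates below 0 and no call higher. The calls were Cox5a, Ndufb10, Ndufb7 and Ndufb8 in the first list and Mrpl18, Mrpl46 and Mrps12 in the second. With the replicate block the numbers lower were 17 and 12. Without KO DMSO replicate 2 they were 5 and 2, without KO DMSO replicate 3 they were 14 and 6, without KO DMSO replicate 1 both were 1, and without KO Torin1 replicates 1, 2 and 3 they were 0, 0 and 0 and 0, 1 and 0. KO DMSO replicate 2 stood above the mean of the other DMSO libraries by a median of 0.221 log2 units for oxidative phosphorylation, 0.206 for the mitochondrial ribosome and 0.226 for TOP mRNAs. Without that library the median log2 fold change was -0.0993 for oxidative phosphorylation and -0.0836 for the mitochondrial ribosome.

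Of 18 clock genes tested, 6 rose and 2 fell, with a median of 0.06. Between 4 and 6 were higher over the alternative fits. Nr1d1 (REV-ERBalpha), the repressor in the second loop of the clock, had 22.2, 28.0 and 22.6 CPM in KO DMSO and 57.5, 72.5 and 63.2 CPM in KO Torin1. Torin1 libraries were all well above DMSO, with a log2 fold change of 1.41 ± 0.115 (SE, adjusted p = 1.32e-05) by edgeR. Nfil3, a repressor of D-box genes, moved the other way, at 39.9, 38.4 and 34.0 CPM in KO DMSO and 14.9, 14.8 and 16.5 CPM in KO Torin1 and -1.28 ± 0.100 (SE, adjusted p = 1.04e-05). Bhlhe40 (DEC1), a repressor of CLOCK and BMAL1, changed by 1.10 (adjusted p = 1.52e-05), Per1 by 0.67 (adjusted p = 0.00187) and Ciart (CHRONO) by -1.51 (adjusted p = 6.85e-05). Per2 and Dbp, a D-box activator, had -0.16 (adjusted p = 0.538) and -0.08 (adjusted p = 0.808).

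Of 303 numbered zinc finger (Zfp) genes, most of them KRAB or C2H2 factors whose paralogs are close enough in sequence that reads could be split between them, 40 were called higher and 3 lower (Zfp420, Zfp574 and Zfp639), with a median of 0.21 and 246 point estimates above 0. The number higher was 19, 13 and 19 without KO Torin1 replicates 1, 2 and 3 and 72 with the replicate block, and the number lower was 1 without KO DMSO replicate 1 or any 1 of the KO Torin1 libraries. Zfp608 changed by 0.85 (adjusted p = 0.000503) and Zfp7 by 0.60 (adjusted p = 0.00112), and Zfp420 went against the group, with 10.8, 7.54 and 12.6 CPM in KO DMSO and 3.42, 3.31 and 2.49 CPM in KO Torin1 and no overlap (-1.75 ± 0.207 SE, adjusted p = 0.000315 by edgeR). KO DMSO replicate 2 stood below the other DMSO libraries for this list, at a median deviation of -0.180 log2 units, and without it 46 were called higher and 4 lower.

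Of 52 histone and chromatin modifying enzymes, 12 rose and none was called lower, with a median of 0.13. The number was 6 without KO DMSO replicate 1, 19 without KO DMSO replicate 3, 5 without any 1 of the KO Torin1 libraries and 20 with the replicate block. Without KO DMSO replicate 2 it was 13, with 2 called lower and a median of 0.0805. Ezh1, a methyltransferase of Polycomb, had 18.1, 16.9 and 18.8 CPM in KO DMSO and 34.5, 34.8 and 35.1 CPM in KO Torin1. Its libraries agreed closely within each condition, and its log2 fold change was 0.95 ± 0.0889 (SE, adjusted p = 4.26e-05) by edgeR. Kdm5b, a demethylase of H3K4, changed by 0.57 (adjusted p = 0.000307). Crebbp, the acetyltransferase CBP, had 0.12 (adjusted p = 0.53) with overlapping libraries.

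Of 28 sympathoadrenal genes, 4 were called higher (Elavl4, Gata2, Mycn and Tbx2) and 2 lower (Gata3 and Isl1), with a median of 0.06, and 2, 1 and 2 were higher without KO Torin1 replicates 1, 2 and 3. The number lower was 4 without KO DMSO replicate 3, and it was 1 when KO DMSO replicate 1 was left out or any 1 of the KO Torin1 libraries. Mycn, the MYC family oncogene of neuroblastoma, had 31.2, 25.7 and 23.3 CPM in KO DMSO and 69.5, 70.1 and 57.2 CPM in KO Torin1. All Torin1 libraries were higher, with a log2 fold change of 1.30 ± 0.119 (SE, adjusted p = 3.79e-05) by edgeR. Gata3, a factor of sympathetic neurons, had -0.92 (adjusted p = 0.0041), while Hand2, of the same circuit, had -0.08 (adjusted p = 0.497).

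In the G1/S and replication list, 2 of 41 were called higher (Mcm10 and Pole) and 2 lower (Ccnd1 and Ccnd3), with a median of -0.00135. The called share was 9.76%, near the 9.97% over all transcripts tested. Ccnd3 (cyclin D3) had 44.6, 44.8 and 39.8 CPM in KO DMSO and 31.3, 33.0 and 30.4 CPM in KO Torin1 and a log2 fold change of -0.45 ± 0.0855 (SE, adjusted p = 0.00765) by edgeR, and it was the only 1 of these 4 calls to hold in all 6 fits without 1 library, over which 0 to 5 were higher and 1 to 4 lower. With the replicate block 6 were higher. In mitosis and the spindle checkpoint 1 of 40 was called higher (Ndc80) and 2 lower (Aurka and Cdca8), with a median of -0.07, calls of which none held in all 6 fits, and 6 were lower with the replicate block. The called share of that list was 7.5%, below that of all transcripts. Ccnb1 and Cdk1 had -0.19 (adjusted p = 0.112) and -0.17 (adjusted p = 0.167). Of 19 p53 targets, Btg2, given above, was higher and Tigar (-0.63, adjusted p = 0.00433) and Aen were lower, with a median of -0.07. The call of Aen was lost without KO DMSO replicate 1 and without KO Torin1 replicate 2 or 3, and Cdkn1a (p21) had -0.18 (adjusted p = 0.347).

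The transcripts that rose had longer coding sequences. Their median coding length was 1800 nt, against 1338 nt for those that fell and 1389 nt over the 10961 transcripts tested that were matched to the annotation. Split into 3 equal parts by coding length, the median log2 fold change was -0.09 in the short, 0.01 in the middle and 0.07 in the long part, with 115, 243 and 327 increases and 152, 130 and 127 decreases. KO DMSO replicate 2 moved with length as well, standing 0.118 log2 units above the mean of the other DMSO libraries in the short part and -0.113 in the long part. Without that library the medians of the 3 parts were -0.05, 0.02 and 0.03, and the median coding length was 1755 nt for 857 increases and 1444.5 nt for 608 decreases. Its part in the pattern was not tested beyond this.

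The same treatment of ctrl cells, in libraries of their own, allowed the KO response to be set beside that of cells transfected with the empty vector. The comparisons share no library. There 299 of 10958 transcripts were called (2.73%), a count that was 1465 without ctrl DMSO replicate 3, 146 without ctrl DMSO replicate 1, 116, 114 and 135 without ctrl Torin1 replicates 1, 2 and 3 and 1328 with the replicate block. Of the 679 KO increases tested in ctrl cells, 205 were called higher and 0 lower (background 2.05% and 0.675%), and 676 had a positive log2 fold change. Of the 411 KO decreases, 65 were called lower and 0 higher, and 409 had a negative one. The median log2 fold change of the KO increases was 0.53 in KO and 0.56 in ctrl cells, and that of the KO decreases was -0.40 and -0.39. Medians of whole lists were less alike in places. TOP mRNAs had -0.07 in KO and -0.28 in ctrl cells, oxidative phosphorylation -0.16 and -0.32, and the mitochondrial ribosome -0.16 and -0.29. Immediate early genes had 0.67 and 0.64. Differences of whole lists between KO and ctrl cells were not tested. Across the 10889 transcripts tested in both, r between the log2 fold changes was 0.829, a description across transcripts that are not independent.

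Whether the response differed with genotype was tested as the interaction of genotype with treatment over the 12 RNA-seq libraries. It gave 0 of 11073 transcripts with edgeR and 0 with DESeq2, with 108 and 94 at an unadjusted p under 0.05. Both counts are below the share of 0.05 that evenly spread p-values would give. An absence of calls from such a test does not show that KO and ctrl cells responded alike. Without ctrl DMSO replicate 3 the number called was still 0 with edgeR, with 896 at an unadjusted p under 0.05. Without ctrl DMSO replicate 1 and KO DMSO replicate 2 in turn, the unadjusted counts were 341 and 226. The difference in log2 fold change, KO minus ctrl, was 0.14 ± 0.157 (SE) for Chac1, 0.29 ± 0.193 for Sesn2, -0.06 ± 0.399 for Egr2, -0.09 ± 0.668 for Fbxo32 and 0.04 ± 0.213 for Atg14. Those differences were within 2 standard errors of 0. Ddit3 had -0.37 in KO and -0.80 in ctrl cells, a difference of 0.42 ± 0.187 (SE, adjusted p = 0.999 by edgeR). Ccl2 rose by 2.45 in KO and had 1.52 in ctrl cells, a difference of 0.93 ± 0.494 (SE).

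**Figure D4:**
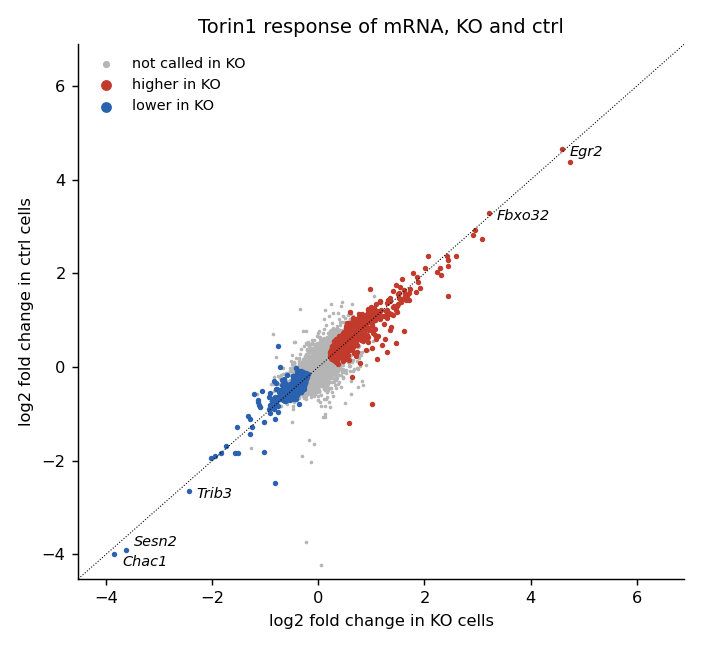
Log2 fold change with Torin1 in ctrl cells (vertical axis) against that in KO cells (horizontal axis), 1 point per transcript tested in both, with equal values along the dotted line. Transcripts called in KO cells are red (higher) and blue (lower), and 676 of 679 and 409 of 411 of them have the same sign in both.

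Ribosome footprints of KO cells, from other libraries of the same cells and treatment, add what was translated. Footprints were called for 4390 of 10822 transcripts (40.6%), 1999 higher (18.5%) and 2391 lower (22.1%). These directions are relative to the bulk, since with library totals as the only scaling the median moved from 0.02 to 0.27 and 3766 were higher and 1532 lower. Of 659 mRNAs that rose and had footprints tested, footprints were called higher for 331 and lower for 39, and of 408 that fell they were called lower for 196 and higher for 23. Among immediate early genes 19 of 30 were higher in footprints, with a median log2 fold change of 1.09 beside 0.67 for mRNA. In the TOP list 86 of 88 were lower in footprints, with a median of -2.13, where 0 of 88 mRNAs were called.

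Single genes parted in several ways. Slc7a5 had a log2 fold change of -0.60 in mRNA and -2.61 (adjusted p = 9.22e-19) in footprints by edgeR, and Scap had -0.38 and -2.66 (adjusted p = 1.13e-10). Chac1, with -3.84 in mRNA, had -1.38 (adjusted p = 6.59e-06) in footprints. Atf3 mRNA fell by 2.03 on the log2 scale while its footprints had 0.01 (adjusted p = 0.988). Cnn2, with 1.37 in mRNA, had 0.14 (adjusted p = 0.681) in footprints. For Hspb8 the directions were opposite, with -0.36 in mRNA and 0.29 (adjusted p = 0.0435) in footprints. Lamp1, Ctsd and Mcoln1, with no called change of mRNA, had footprint values of -1.16 (adjusted p = 5.62e-10), -1.06 (adjusted p = 3.69e-10) and -1.33 (adjusted p = 5.02e-09). The difference between the assays was not tested here.

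**Figure D5:**
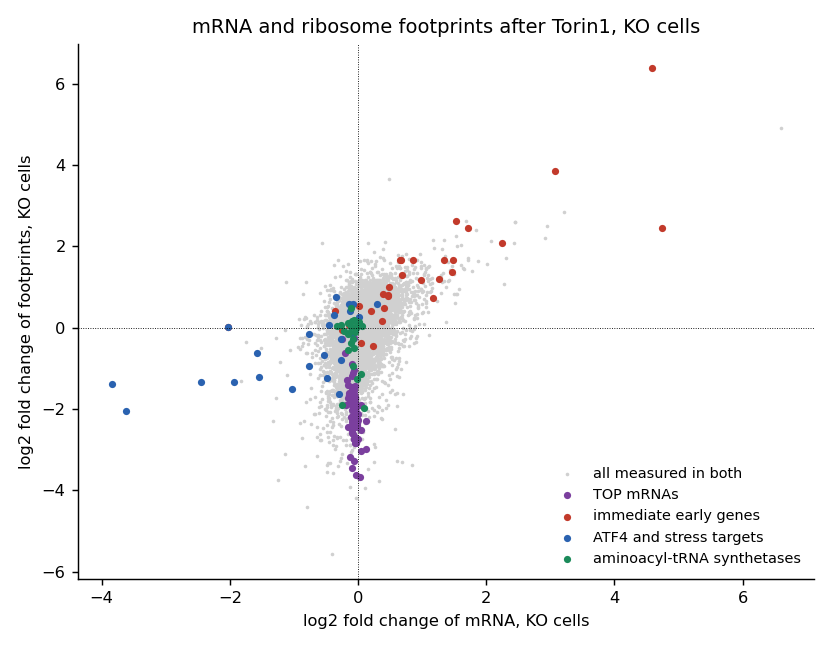
Log2 fold change of footprints (vertical axis) against that of mRNA (horizontal axis) with Torin1 in KO cells, 1 point per transcript tested in both assays. TOP mRNAs form a column near 0 on the mRNA axis with a median of -2.13 on the footprint axis, immediate early genes reach to the upper right, and ATF4 and stress targets spread to the left. Aminoacyl-tRNA synthetases are green.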

How the data were processed

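RNA-seq libraries of N2a KO cells (TruSeq stranded) were analysed, 3 per treatment, with 3 KO ribo-seq and 3 ctrl RNA-seq libraries per treatment beside them. Reads had been aligned to mm10 (HISAT2), then to the canonical transcripts of Ensembl (bowtie2), and the authors deposited counts of reads (ribo-seq: riboWaltz P-sites) per CDS, without normalization. Their fold change and p-value columns from edgeR and their TE tables were not used. Totals were 17953074 to 28912958 per KO RNA-seq library and 1615954 to 5288846 per KO ribo-seq library.

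Transcripts with a CPM over 1 in all 3 libraries of a condition were tested with edgeR 4.0.16 (R 4.3.3, TMM, quasi-likelihood F-test, Benjamini-Hochberg, threshold 0.05), the main design having no block. CPM values are after TMM scaling, except in the filter and the summed marker levels, which used library totals alone. Alternatives were DESeq2 1.42.0, its size factors, other filters, the exact test, all 4 conditions together, a threshold of 0.01, the replicate block and leaving out each library. Scripts were tested on simulated data. Figures used matplotlib 3.10.9 in Python 3.11.15. Positions are from GENCODE M21 (GRCm38) and promoters from RefSeq GRCm38.p6.

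The members, the 28 gene lists and the tests were chosen with earlier results of these data known. Genes named are Eif4e3, the 10 largest increases and 10 largest decreases called without overlap (mean count of 10 or more in the higher group), and in each list its key members and up to 3 called members per direction with the smallest adjusted p, of which those with calls that held without any 1 library were given first. Further members were named to complete counts of 5 or fewer, after their values were seen, and some key members are not reported here. Replicate numbers are passages per the labels and pair the libraries: after removing condition means, r across transcripts was 0.139, 0.178 and 0.204 for equal numbers and -0.142 to -0.043 for others. Deviations from a condition mean cancel out over its libraries, so positive values for equal numbers force negative ones among the others.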

Additional observations from a re-analysis of the deposited data

How the results depend on the processing

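For KO cells, 1097 calls (686 higher, 411 lower) became 1453 with DESeq2, 1096 with DESeq2 size factors, 1101 with filterByExpr, 1078 with no filter and 1056 without scaling beyond library size. They became 558 (370 higher, 188 lower) when all 4 conditions were fitted together, 1669 (1006 higher, 663 lower) with the exact test and 392 (276 higher, 116 lower) at a threshold of 0.01, and the cause was not tested for the first of these. The replicate block, which pairs libraries of equal number, gave 1797 (1080 higher, 717 lower). Leaving out each library gave 438 to 1465 calls, 302 to 857 higher and 136 to 608 lower. For ctrl cells, 299 calls became 723 with DESeq2, 1328 with the replicate block and 114 to 1465 without each library in turn. KO footprints gave 3527 to 5298 calls over the alternatives, and the interaction gave 0 in each of them. No named transcript changed direction while called. With 3 libraries per condition the precision of transcripts near 1 CPM is limited by depth and by this spread.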

Other observations

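Nbr1, an autophagy receptor, and Slit1, an axon guidance ligand, were called in KO cells and had the opposite sign in ctrl cells, and both were singled out after their values were seen. Nbr1 had 132, 116 and 141 CPM in KO DMSO and 186, 198 and 197 CPM in KO Torin1. The groups did not overlap, with a log2 fold change of 0.57 (adjusted p = 0.000887 by edgeR). In ctrl cells it had 105, 104 and 1034 CPM in ctrl DMSO and 182, 178 and 186 CPM in ctrl Torin1, where 1 DMSO library stood far above the other two and the Torin1 libraries lay between. The log2 fold change there was -1.19 (adjusted p = 0.305), and the interaction had an adjusted p of 0.999. Slit1 had 3.02, 3.17 and 2.46 CPM in KO DMSO and 1.48, 1.81 and 1.79 CPM in KO Torin1. In ctrl cells it had 1.35, 1.74 and 2.12 CPM in ctrl DMSO and 2.97, 2.04 and 2.03 CPM in ctrl Torin1, with log2 fold changes of -0.76 (adjusted p = 0.0406 by edgeR) in KO and 0.45 (adjusted p = 0.323) in ctrl cells and an adjusted p of 0.999 for the interaction.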
